A study of Homo sapiens with 36 samples.

Results

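The colorectal cancer cell line LoVo, of human origin, received 30 nM of a MEK inhibitor or its solvent DMSO for 24 hours, and the RNA of 20802 genes was counted. The 30 nM libraries were compared with the DMSO libraries over every gene of the panel, with spike-in rows left out. There were 3 libraries at 30 nM and 6 of DMSO, of which 3 belonged to chip 1 and 3 to chip 2, so 9 of the 36 libraries of the series enter the main comparison. The other libraries hold cells treated with 9 other doses between 0.03 and 1000 nM, and those at 10, 100 and 1000 nM are used as neighbours. All groups share the cell line, the medium with serum and the 24 hours of treatment. The inhibitor is identified in the labels by a compound number from a medicinal chemistry paper. The labels speak of biological replicates without saying how cultures were kept apart. Each p-value rests on a spread estimated per gene over all 36 libraries, part of which may be technical. A single tumour line stands for no other cell, and each gene was read through short amplicons of a targeted panel, so levels of different genes are not compared.

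MEK1 and MEK2 are the kinases that phosphorylate and activate ERK, the last kinase of the RAS, RAF, MEK and ERK chain. Active ERK switches on transcription factors and also the genes of its own inhibitors, the DUSP phosphatases and the Sprouty and SPRED proteins, which close a negative feedback loop. In colon epithelium the pathway is known for driving proliferation in the crypt and for supporting MYC, which in turn drives the making of ribosomes, nucleotides and protein.

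At 30 nM the transcripts of DUSP6, DUSP4, SPRY2, the ETS factors ETV4 and ETV5, the EGFR ligands AREG, EREG and HBEGF, and MYC fell, and with them most genes of ribosome assembly, amino acid supply and tRNA charging. Higher were 17 of 23 tested genes of cholesterol synthesis, 17 of 30 of lysosomes and autophagy and 23 of 30 of the interferon response, as were several keratins, laminins and the pro-apoptotic genes BMF and BCL2L11. The pro-apoptotic genes PMAIP1 and HRK were lower, and in the BCL2 family 4 of 15 tested members rose and 3 fell. Of the 20802 genes, 12102 passed the filter on low counts and were tested, and 4505 had 0 counts in all 9 libraries. Expression of 4352 tested genes (36%) changed, 2174 higher (18%) and 2178 lower (18%), by edgeR's quasi-likelihood test at an adjusted p below 0.05 against both DMSO chips. Changes of at least 2-fold made up 621 of the higher genes (5.13%) and 676 of the lower ones (5.59%). Every 30 nM library lay above every DMSO library for 2701 genes (22.3%) and below every DMSO library for 2603 (21.5%). The median log2 fold change over all tested genes was 0.0067, and every share given for a gene list below is to be read against these.

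Total counts lay between 3477919 and 3797393 at 30 nM and between 2972186 and 4072743 in DMSO. The chips differed in 0 genes (0%) in edgeR's quasi-likelihood test, with 308 genes at an unadjusted p below 0.05 and 2 genes called by DESeq2. DMSO libraries with 1 number on either chip shared their deviations, so means and SDs of DMSO are over 3 pair means. The test between chips did not use this pairing, so its 0 calls do not show that the chips agree. Replicate 3 of 30 nM stood apart from the other two. The counts of replicates 1 and 2 differed with a chi-square per degree of freedom of 2.79, against 5.90 for replicates 1 and 3 and 4.34 for replicates 2 and 3, and pairs of DMSO libraries gave 1.58 to 2.64. TRABD2A, an inhibitor of WNT signalling, shows this difference with 4.36, 6.52 and 17.04 CPM at 30 nM, against 52.7 to 68.2 CPM (median 57.6) in DMSO. The model shares its estimate of the spread between all groups, which may be too small for 30 nM. Without replicate 3 of 30 nM the count of genes called was 2066 higher and 2188 lower.

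Transcripts that report ERK output directly fell, and only those of EGFR ligands and the amino acid stress response had lower medians among the 49 lists examined. Of the 10 listed genes all were tested, 8 fell and 0 rose, and the list median was -1.45 on the log2 scale. In the 3 libraries at 30 nM the list median stood at -1.59, -1.22 and -1.64 relative to the DMSO mean. DUSP6, the phosphatase that inactivates ERK in the cytoplasm, had 6.10, 6.52 and 4.58 CPM at 30 nM, against 58.5 to 69.5 CPM (median 63.7) in DMSO. DUSP4, its nuclear relative, had 42.97, 51.1 and 35.1 CPM at 30 nM, against 110.1 to 146 CPM (median 118) in DMSO. No library at 30 nM reached the DMSO range for either gene, and the log2 fold changes were -3.48 (SE 0.16, edgeR adjusted p = 2.41e-23) for DUSP6 and -1.49 (SE 0.12, edgeR adjusted p = 1.8e-14) for DUSP4. The Sprouty gene SPRY2, which blocks signalling upstream of RAF, had 17.4, 24.7 and 22.6 CPM at 30 nM, against 46.6 to 61.2 CPM (median 59.5) in DMSO, a log2 fold change of -1.41 (SE 0.14, edgeR adjusted p = 2.75e-11). SPRY4 had 0 counts in the 3 libraries at 30 nM and 57 counts over the DMSO libraries, which is at least 10.0-fold lower when 3 counts stand in for the group's 0.

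The ETS transcription factors of the PEA3 group, ETV4 and ETV5, are known targets of ERK and fell in step. ETV4 had 7.26, 9.79 and 10.9 CPM at 30 nM, against 54.4 to 74.3 CPM (median 65.00) in DMSO. ETV5 had 6.97, 9.79 and 9.41 CPM at 30 nM, against 64.6 to 80.4 CPM (median 71.6) in DMSO. Their log2 fold changes were -2.78 (SE 0.18, edgeR adjusted p = 5.51e-18) for ETV4 and -3.02 (SE 0.22, edgeR adjusted p = 1.22e-14) for ETV5, with no overlap between groups. The receptor tyrosine kinase EPHA2 fell too, with 199.8, 221 and 158 CPM at 30 nM, against 432 to 467 CPM (median 447) in DMSO and a log2 fold change of -1.22 (SE 0.12, edgeR adjusted p = 4.52e-11). PHLDA1, a pleckstrin homology protein induced by growth factors, had 294, 291 and 249 CPM at 30 nM, against 417 to 462 CPM (median 435) in DMSO, a log2 fold change of -0.66 (SE 0.10, edgeR adjusted p = 2.82e-07). CCND1, the cyclin that carries growth signals to the cell cycle, had 278, 265 and 237 CPM at 30 nM, against 265 to 302 CPM (median 285) in DMSO, which overlap, at a log2 fold change of -0.13 (SE 0.10, edgeR adjusted p = 0.424). EPHA4 had 4.07, 5.44 and 6.87 CPM at 30 nM, against 2.76 to 8.18 CPM (median 5.40) in DMSO and a log2 fold change of 0.083 (SE 0.34, edgeR adjusted p = 0.985), whose sign turned in 5 of the alternative settings.

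**Figure D1:**
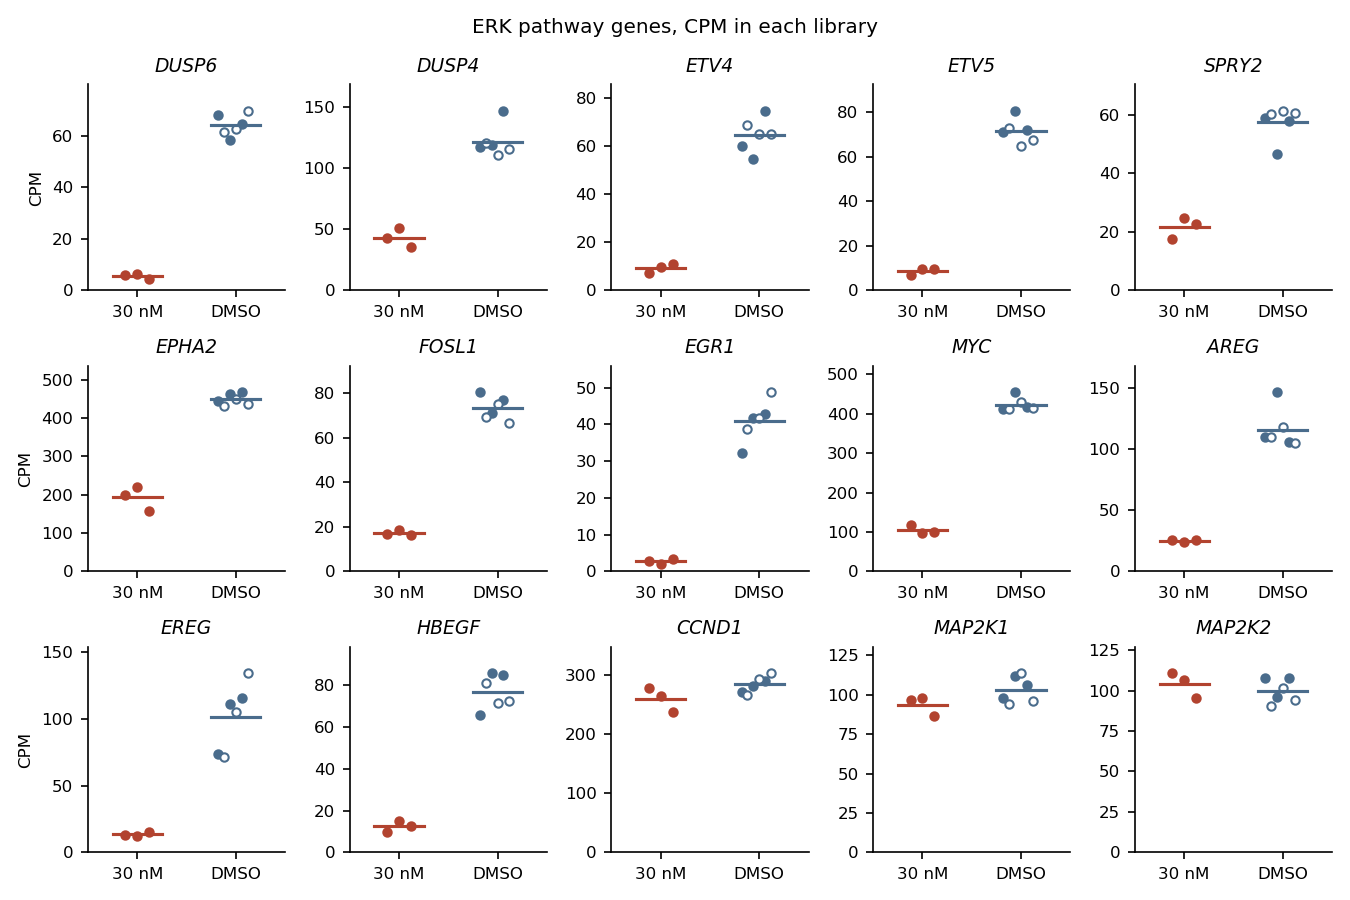
CPM (y axes, linear from 0) of 15 genes of the ERK pathway in each library at 30 nM (red, left) and of DMSO (blue, right, filled for chip 1 and open for chip 2), with lines at the mean of each group. The 30 nM points of DUSP6 through HBEGF lie below all DMSO points, while CCND1, MAP2K1 and MAP2K2 overlap.

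Among other genes known to respond to ERK, 14 of 16 listed were tested, 7 fell and 3 rose, with a median of -0.61. FOSL1, a FOS-related protein of the AP-1 complex, had 16.8, 18.5 and 16.5 CPM at 30 nM, against 66.8 to 80.4 CPM (median 73.03) in DMSO. PHLDA2, a paralog of PHLDA1, had 19.7, 21.7 and 18.6 CPM at 30 nM, against 47.3 to 58.9 CPM (median 53.2) in DMSO. SPRED2, an inhibitor of RAS signalling, had 41.5, 35.3 and 41.5 CPM at 30 nM, against 75.6 to 83.6 CPM (median 78.3) in DMSO. All 3 genes stood below the DMSO range in every library, with log2 fold changes of -2.08 (SE 0.15, edgeR adjusted p = 4.15e-16) for FOSL1, -1.40 (SE 0.16) for PHLDA2 and -1.01 (SE 0.14) for SPRED2. IER3, a survival gene of the early response, changed by -1.05 (SE 0.15, edgeR adjusted p = 2.52e-07). In the other direction, PLAUR, the urokinase receptor, had 25.6, 28.001 and 27.2 CPM at 30 nM, against 12.6 to 18.5 CPM (median 16.1) in DMSO, a log2 fold change of 0.78 (SE 0.18, edgeR adjusted p = 0.00188). CIC, a repressor of ETS genes that ERK is known to remove from DNA, changed by 0.47 (SE 0.12, edgeR adjusted p = 0.0029).

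Immediate early genes, which growth signals switch on without new protein synthesis, fell in 4 of 12 tested members out of 17 listed, with a median of -0.24. EGR1, a zinc finger transcription factor, had 2.90, 1.90 and 3.31 CPM at 30 nM, against 32.3 to 48.7 CPM (median 41.8) in DMSO, a log2 fold change of -3.90 (SE 0.24, edgeR adjusted p = 1.59e-18). KLF10 had 4.65, 3.26 and 8.14 CPM at 30 nM, against 9.90 to 18.3 CPM (median 14.7) in DMSO and changed by -1.41 (SE 0.37, edgeR adjusted p = 0.00413). FOS, a partner of JUN in AP-1, had 1.45, 3.81 and 2.54 CPM at 30 nM and a lowest, median and highest of 3.99, 5.82 and 10.9 CPM in DMSO, a log2 fold change of -1.25 (SE 0.38, edgeR adjusted p = 0.0105). Its level was low throughout, the groups came close to touching, and its call was lost without replicate 1 of 30 nM (adjusted p = 0.0772 in edgeR's quasi-likelihood test) and without replicate 3 of DMSO on chip 2 (adjusted p = 0.130) or on both chips (adjusted p = 0.142). MYC is described with its network below.

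The ligands of EGFR are made as membrane proteins and act on the same or neighbouring cells when shed, which feeds the pathway from its top. AREG, amphiregulin, had 25.6, 24.5 and 25.7 CPM at 30 nM, against 105 to 146 CPM (median 109.8) in DMSO. EREG, epiregulin, had 12.8, 12.2 and 15.5 CPM at 30 nM, against 71.3 to 134 CPM (median 108) in DMSO. HBEGF, the heparin-binding ligand, had 9.87, 15.2 and 12.5 CPM at 30 nM, against 65.6 to 85.5 CPM (median 76.5) in DMSO. All 3 fell without overlap, with log2 fold changes of -2.20 (SE 0.16, edgeR adjusted p = 1.16e-14) for AREG, -2.90 (SE 0.31, edgeR adjusted p = 2.38e-08) for EREG and -2.61 (SE 0.18, edgeR adjusted p = 3.62e-16) for HBEGF. TGFA had 14.8, 17.7 and 9.16 CPM at 30 nM, against 8.60 to 20.9 CPM (median 17.02) in DMSO and BTC had 15.1, 11.4 and 12.97 CPM at 30 nM, against 14.3 to 23.2 CPM (median 17.00) in DMSO. Both overlapped with DMSO, at -0.22 (SE 0.24, edgeR adjusted p = 0.9) for TGFA and -0.42 (SE 0.20, edgeR adjusted p = 0.237) for BTC, although BTC passed against DMSO chip 1 alone, the mean of both DMSO groups and DMSO summed over chips (adjusted p = 0.0259, 0.0402 and 0.0408 in edgeR's quasi-likelihood test). EGF itself had 0 counts at 30 nM and 2 in DMSO and was not tested.

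Of 20 listed receptor kinases and adaptors, 18 were tested, 6 rose (33.3%) and 3 fell (16.7%), around a median of -0.078. The share over all genes was 18% in either direction. The number of receptor kinases and adaptors higher was 3 without replicate 1 of DMSO on both chips. IRS1, the adaptor of the insulin and IGF1 receptors, had 20.6, 31.5 and 31.8 CPM at 30 nM, against 73.4 to 85.7 CPM (median 77.3) in DMSO, a log2 fold change of -1.47 (SE 0.13, edgeR adjusted p = 4.97e-13). MET, the receptor of hepatocyte growth factor, had 97.9, 103 and 161 CPM at 30 nM, against 210.0 to 239 CPM (median 223) in DMSO, with replicate 3 above replicates 1 and 2, and changed by -0.90 (SE 0.16, edgeR adjusted p = 4.86e-05). EPHA1 moved the other way, with 91.2, 97.6 and 119.8 CPM at 30 nM, against 45.6 to 59.2 CPM (median 52.3) in DMSO and a log2 fold change of 0.97 (SE 0.13, edgeR adjusted p = 3.93e-08). DDR1, a collagen receptor, changed by 0.37 (SE 0.093, edgeR adjusted p = 0.00301).

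Of 20 genes for kinases, GTPases and regulators of the chain itself, all tested, 3 rose (15%) and 0 fell, with a median of 0.16. The share over all genes was 18% in either direction, and 1 member fell without replicate 1 or replicate 3 of 30 nM. The inhibitor's targets were MAP2K1 (MEK1), with 96.4, 97.9 and 86.5 CPM at 30 nM, against 94.3 to 114 CPM (median 102) in DMSO, and MAP2K2 (MEK2), with 111, 106 and 95.1 CPM at 30 nM, against 90.3 to 108 CPM (median 98.7) in DMSO. Both overlapped with DMSO, at log2 fold changes of -0.14 (SE 0.094, edgeR adjusted p = 0.381) for MAP2K1 and 0.064 (SE 0.10, edgeR adjusted p = 0.996) for MAP2K2. BRAF, a kinase that activates MEK, stood at 0.18 (SE 0.11, edgeR adjusted p = 0.445) and did not pass. MAPK3 (ERK1) had 69.98, 82.6 and 87.8 CPM at 30 nM, against 44.2 to 50.6 CPM (median 44.9) in DMSO, a log2 fold change of 0.80 (SE 0.11, edgeR adjusted p = 1.07e-07). RPS6KA1, a kinase that ERK activates, changed by 0.69 (SE 0.12, edgeR adjusted p = 8.53e-06) and RASA1, a GTPase activating protein for RAS, by 0.40 (SE 0.11, edgeR adjusted p = 0.00576).

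MYC heterodimerises with MAX to activate its targets, and the MXD proteins compete with it for MAX. MYC had 119, 97.6 and 101 CPM at 30 nM, against 411 to 454 CPM (median 416) in DMSO, a log2 fold change of -2.00 (SE 0.10, edgeR adjusted p = 2.26e-22). Its 30 nM values lay far below the DMSO range and close to each other. MXD4, one of its antagonists, had 255, 296 and 256 CPM at 30 nM, against 109.7 to 120.5 CPM (median 114) in DMSO, a log2 fold change of 1.23 (SE 0.13, edgeR adjusted p = 2.23e-10). MAX had 50.5, 59.8 and 30.02 CPM at 30 nM, against 20.04 to 27.6 CPM (median 23.3) in DMSO, higher in every library although replicate 3 lay nearer to DMSO, and changed by 0.98 (SE 0.23, edgeR adjusted p = 0.00166). MYCN was scarce, with 3.48, 2.45 and 2.04 CPM at 30 nM, against 0 to 1.01 CPM (median 0.310) in DMSO, and changed by 2.68 (SE 0.66, edgeR adjusted p = 0.00188), while MLX changed by -0.40 (SE 0.13, edgeR adjusted p = 0.0119). Of 12 members tested, 3 rose (25%) and 2 fell (16.7%), against 18% of all genes in either direction.

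Ribosome assembly needs RNA polymerase I, small nucleolar RNA proteins and many maturation factors in the nucleolus, many of them known MYC targets. Of 38 listed genes 37 were tested, of which 34 fell and 0 rose, against 18% lower over all genes, with a median of -1.06. The median was -0.98, -1.06 and -1.06 in the 3 libraries. LYAR, a nucleolar zinc finger protein, had 27.9, 34.8 and 34.6 CPM at 30 nM, against 116 to 137 CPM (median 126) in DMSO. DDX21, a helicase of RNA polymerase I transcription, had 44.4, 48.4 and 60.03 CPM at 30 nM, against 164 to 197 CPM (median 174) in DMSO. GNL3, nucleostemin, had 60.98, 59.3 and 56.98 CPM at 30 nM, against 127 to 162 CPM (median 146) in DMSO. No 30 nM library reached the DMSO range for any of the 3, and the log2 fold changes were -1.95 (SE 0.12, edgeR adjusted p = 8.56e-18) for LYAR, -1.81 (SE 0.12, edgeR adjusted p = 2.06e-17) for DDX21 and -1.30 (SE 0.11) for GNL3. RRP12, which exports ribosomal subunits from the nucleus, changed by -1.25 (SE 0.11, edgeR adjusted p = 9.49e-13).

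The letters CACGTG, the E-box that MYC and MAX bind, were searched on both strands of the RefSeq promoters (GRCh38.p14, 250 bases before to 50 after the start of each gene). Of the 37 tested members 30 matched a promoter by symbol, and 9 of them (30.0%) held the E-box, against 7.26% of all 35116 promoters. All 9 of these genes fell, as did 34 of the 37 tested members. Whether members with the letters differ from the others was not tested, here or for the elements below. The set of all promoters includes genes that were not tested for expression. A match is a description of the letters and not a binding site. MRTO4, a factor of the large subunit, has the smallest adjusted p of the 9, and its promoter on the plus strand at chr1:19251555-19251854 is shown with the E-box in capitals, in the bases just after the start.
MRTO4: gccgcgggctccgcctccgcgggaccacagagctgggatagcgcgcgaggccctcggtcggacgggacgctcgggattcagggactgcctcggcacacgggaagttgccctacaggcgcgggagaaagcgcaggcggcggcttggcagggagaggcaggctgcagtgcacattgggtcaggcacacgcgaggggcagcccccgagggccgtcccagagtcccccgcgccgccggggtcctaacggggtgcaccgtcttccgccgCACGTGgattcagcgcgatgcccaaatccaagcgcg
MRTO4 changed by -1.34 (SE 0.12, edgeR adjusted p = 6.05e-12).

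Of 55 listed cytosolic ribosomal proteins 54 were tested, 11 fell (20.4%) and 1 rose (1.85%), with a median of -0.04, against 18% of all genes in either direction. Without replicate 2 of 30 nM 5 were lower and 0 higher, and without replicate 3 of 30 nM 3 were higher. RPS14, of the small subunit, had 31.9, 32.4 and 40.2 CPM at 30 nM, against 116 to 128 CPM (median 119) in DMSO, a log2 fold change of -1.78 (SE 0.14, edgeR adjusted p = 4.67e-14). RPL12 of the large subunit changed by -0.37 (SE 0.089, edgeR adjusted p = 0.00168). RPL11 changed by 0.30 (SE 0.10, edgeR adjusted p = 0.013), a call lost without replicate 2 of 30 nM, replicate 2 of DMSO on chip 1 or on both chips, or replicate 1 of DMSO on both chips, with adjusted p of 0.0527 to 0.0962 in edgeR's quasi-likelihood test. Ribosomal proteins have many pseudogene copies, and whether their amplicons tell these apart is not given in the sources used here. Of 36 mitochondrial ribosomal proteins in the files, 35 were tested, 22 fell and 0 rose, with a median of -0.49. MRPL12 had 59.2, 55.7 and 62.3 CPM at 30 nM, against 127 to 145 CPM (median 138) in DMSO, a log2 fold change of -1.22 (SE 0.10, edgeR adjusted p = 9.19e-14). MRPL3 changed by -0.99 (SE 0.12), MRPS10 by -1.07 (SE 0.14) and MRPL15 by -0.92 (SE 0.13).

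Most tested genes of amino acid uptake, serine and folate synthesis, the ATF4 response and tRNA charging fell. ATF4 is the transcription factor of the amino acid stress response, and its targets include asparagine synthetase and the serine pathway. Of 17 listed genes of that response 16 were tested, 11 fell and 0 rose, with a median of -1.58, standing at -1.28, -1.43 and -1.73 in the 3 libraries. ASNS, asparagine synthetase, had 52.3, 52.7 and 57.5 CPM at 30 nM, against 223 to 274 CPM (median 242) in DMSO. STC2, a secreted stanniocalcin, had 16.6, 20.7 and 16.3 CPM at 30 nM, against 96.1 to 106 CPM (median 99.00) in DMSO. DDIT4, an inhibitor of mTORC1, had 201, 172 and 159 CPM at 30 nM, against 698 to 813 CPM (median 770.3) in DMSO. TRIB3, a pseudokinase that restrains ATF4, had 162, 171 and 135 CPM at 30 nM, against 578 to 691 CPM (median 626) in DMSO. These 4 genes fell without overlap, with log2 fold changes of -2.17 (SE 0.11, edgeR adjusted p = 1.36e-21) for ASNS, -2.49 (SE 0.13) for STC2, -2.11 (SE 0.12) for DDIT4 and -2.01 (SE 0.11) for TRIB3.

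Serine synthesis and the mitochondrial folate cycle, which supply one-carbon units for purines and thymidylate, fell in 8 of 12 tested members, with 1 higher and a median of -1.30. PSAT1, the transaminase of serine synthesis, had 129, 149 and 151 CPM at 30 nM, against 764 to 831 CPM (median 793) in DMSO. MTHFD2, a dehydrogenase of the mitochondrial folate cycle, had 321, 320.0 and 274 CPM at 30 nM, against 1121 to 1295 CPM (median 1195) in DMSO. PHGDH, the first enzyme of serine synthesis, had 358, 309 and 263 CPM at 30 nM, against 709 to 824 CPM (median 734) in DMSO. The DMSO values were above every 30 nM value for each, with log2 fold changes of -2.48 (SE 0.10, edgeR adjusted p = 7.74e-25) for PSAT1, -1.96 (SE 0.084, edgeR adjusted p = 3.83e-24) for MTHFD2 and -1.27 (SE 0.10) for PHGDH. ALDH1L2, a mitochondrial folate enzyme, changed by -2.30 (SE 0.18, edgeR adjusted p = 2.11e-14). TYMS, thymidylate synthase, was the member that was higher, at 0.30 (SE 0.10, edgeR adjusted p = 0.0224), and lost its call without 30 nM replicate 1 (adjusted p = 0.0720 in edgeR's quasi-likelihood test) and under 8 other settings, with adjusted p up to 0.258.

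Aminoacyl-tRNA synthetases fell in 18 of 20 tested members with 0 higher, at a median of -0.89. GARS, which charges the glycine tRNA, had 191, 159 and 132 CPM at 30 nM, against 416 to 462 CPM (median 441) in DMSO, a log2 fold change of -1.45 (SE 0.10, edgeR adjusted p = 1.39e-16). SARS, for serine, changed by -1.58 (SE 0.11), YARS, for tyrosine, by -1.49 (SE 0.12) and MARS, for methionine, by -1.23 (SE 0.11). Among amino acid transporters 14 of 18 listed were tested, 11 fell and 2 rose, with a median of -1.12. SLC7A11, the cystine and glutamate exchanger, had 43.8, 33.98 and 34.1 CPM at 30 nM, against 183 to 212 CPM (median 203) in DMSO. SLC1A5, a glutamine carrier, had 147, 161 and 138 CPM at 30 nM, against 452 to 504 CPM (median 469) in DMSO. SLC38A2, another carrier of small neutral amino acids, changed by -1.24 (SE 0.095, edgeR adjusted p = 4.67e-15), after log2 fold changes of -2.43 (SE 0.12, edgeR adjusted p = 1.41e-22) for SLC7A11 and -1.67 (SE 0.10) for SLC1A5. SLC7A7 and SLC7A8 are light chains that work on the basolateral side of intestinal cells, and they rose. SLC7A7 had 183, 179 and 162 CPM at 30 nM, against 47.6 to 58.04 CPM (median 54.6) in DMSO and SLC7A8 had 36.01, 31.5 and 47.1 CPM at 30 nM, against 9.88 to 13.5 CPM (median 12.2) in DMSO, log2 fold changes of 1.71 (SE 0.13, edgeR adjusted p = 5.56e-15) and 1.67 (SE 0.18) in that order.

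The letters TGATGNAA, the core of the amino acid response element to which ATF4 binds with a C/EBP partner, were searched in the same promoters. Over the 4 lists of stress response, serine and folate enzymes, transporters and synthetases, 62 genes were tested and 51 matched a promoter. Of these 12 (23.5%) held the letters on either strand, against 3.62% of all promoters. All 12 were called, as were most tested members of these lists. ASNS has the smallest adjusted p of the 12, and its promoter on the minus strand at chr7:97872359-97872658 is given with the element in capitals.
ASNS: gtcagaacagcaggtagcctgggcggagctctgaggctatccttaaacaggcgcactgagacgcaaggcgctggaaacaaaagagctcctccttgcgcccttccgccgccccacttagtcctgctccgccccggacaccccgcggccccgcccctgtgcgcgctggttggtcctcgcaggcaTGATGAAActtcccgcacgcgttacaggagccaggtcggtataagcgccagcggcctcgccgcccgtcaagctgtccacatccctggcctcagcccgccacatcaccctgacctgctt

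**Figure D2:**
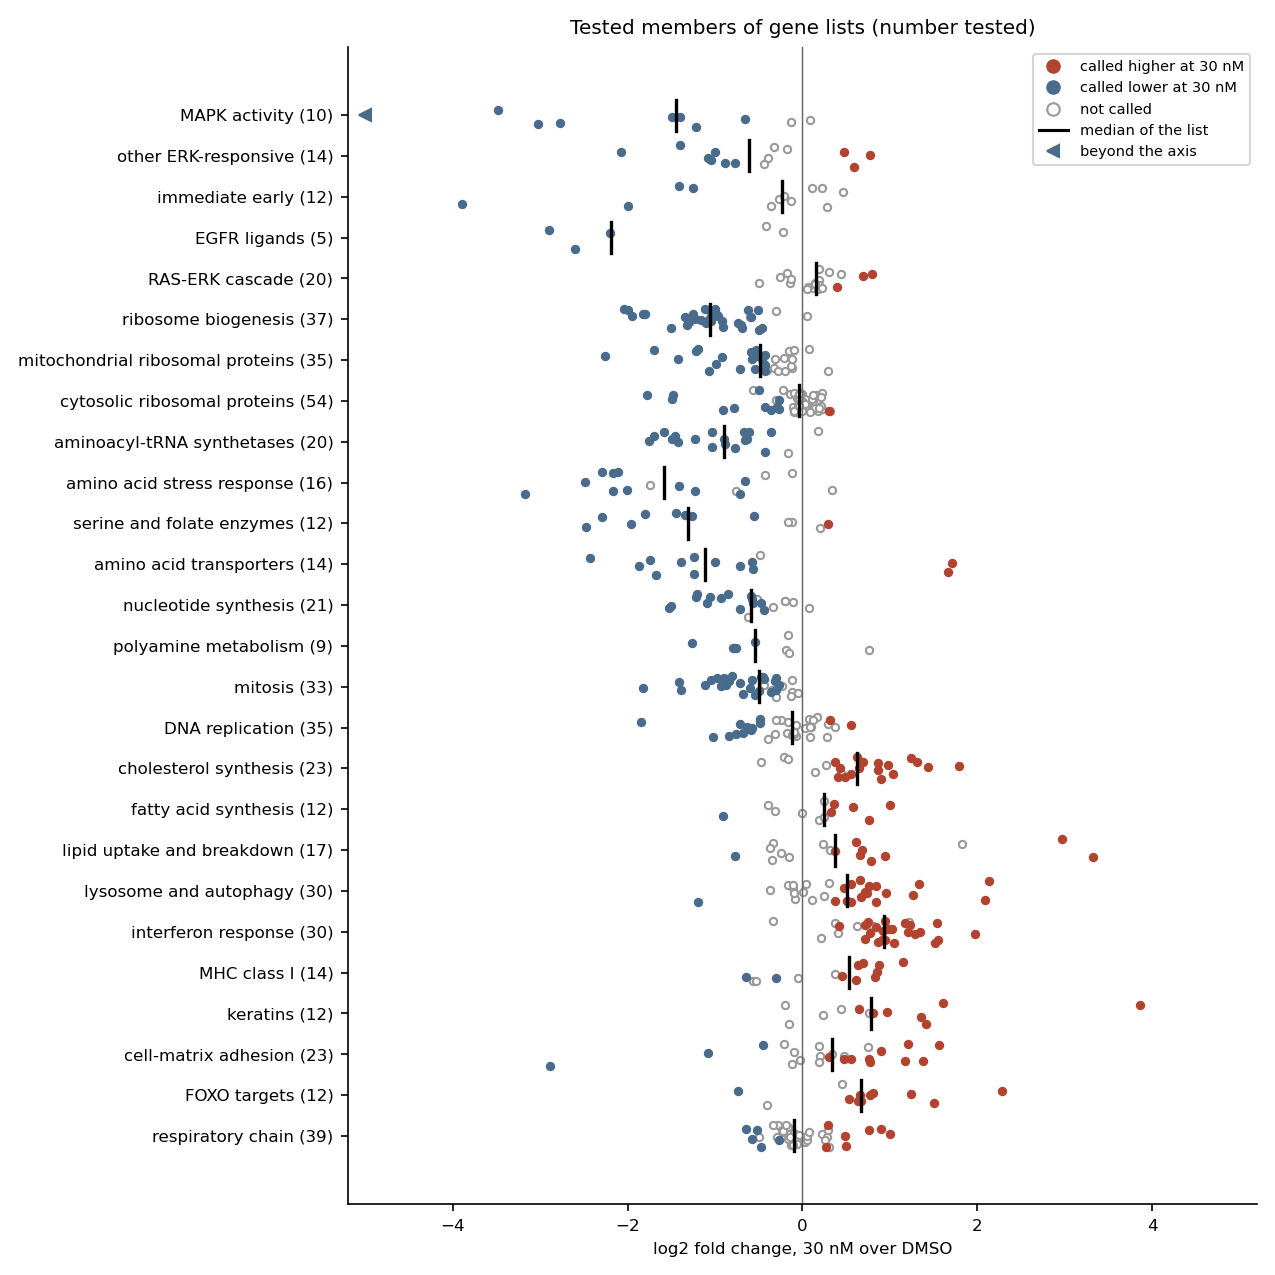
Log2 fold change of 30 nM over DMSO (x axis) for every tested member of 26 gene lists (y axis, number tested in brackets), in red where called higher, in blue where called lower and open where not called, with a black bar at the median. The medians of ribosome biogenesis (-1.06) and the amino acid stress response (-1.58) lie left of 0, those of cholesterol synthesis (0.63) and the interferon response (0.93) right of it, and SPRY4 lies beyond the axis.

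Nucleotide synthesis genes numbered 21, all tested, and 14 of them fell with 0 higher, with a median of -0.59. CAD, which starts pyrimidine synthesis, had 67.9, 70.7 and 68.4 CPM at 30 nM, against 131 to 163 CPM (median 144) in DMSO. CTPS1, which makes CTP, had 35.7, 38.9 and 36.1 CPM at 30 nM, against 77.4 to 94.7 CPM (median 86.4) in DMSO. Both fell without overlap, with log2 fold changes of -1.06 (SE 0.11, edgeR adjusted p = 3.6e-10) for CAD and -1.22 (SE 0.13) for CTPS1. Of the purine enzymes PFAS changed by -1.20 (SE 0.13) and GART by -1.53 (SE 0.17). Polyamine genes fell in 5 of 9 tested members of 10 listed, with 0 higher. SRM, spermidine synthase, had 49.7, 54.4 and 49.6 CPM at 30 nM, against 116 to 135 CPM (median 122) in DMSO and ODC1, ornithine decarboxylase, had 238, 225 and 202 CPM at 30 nM, against 371 to 400.3 CPM (median 381) in DMSO. Their log2 fold changes were -1.26 (SE 0.12, edgeR adjusted p = 3.28e-12) for SRM and -0.79 (SE 0.085) for ODC1, while SMOX stood at -0.79 (SE 0.14) and AZIN1 at -0.54 (SE 0.14), both lower.

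Among regulators of the G1 phase the kinase inhibitors CDKN2B and CDKN2C rose. Of 23 tested members 4 rose (17.4%) and 3 fell (13.0%), near the 18% of all genes in either direction, around a median of -0.024, and without replicate 3 of 30 nM 5 fell. CDKN2B, the p15 inhibitor of CDK4 and CDK6, had 112, 109 and 118 CPM at 30 nM, against 24.5 to 32.5 CPM (median 29.4) in DMSO, a log2 fold change of 1.98 (SE 0.14, edgeR adjusted p = 8.47e-17). CDKN2C, the p18 inhibitor, had 51.4, 43.8 and 38.2 CPM at 30 nM, against 17.3 to 27.1 CPM (median 21.02) in DMSO and changed by 1.01 (SE 0.16, edgeR adjusted p = 1.4e-06). CDK4 had 231, 192 and 186 CPM at 30 nM, against 303 to 349.9 CPM (median 333) in DMSO, lower in every library at -0.70 (SE 0.10, edgeR adjusted p = 1.82e-07). CCND2, a D-type cyclin, was higher at 0.64 (SE 0.14, edgeR adjusted p = 0.000599) and E2F2 lower at -1.62 (SE 0.38, edgeR adjusted p = 0.0012).

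The S phase list moved in part and the mitosis list in most of its members. Of 35 replication genes tested out of 36 listed, 11 fell (31.4%) and 2 rose (5.71%), against 18% of all genes in either direction, with a median of -0.12. RFC4, a subunit of the clamp loader, had 36.01, 32.1 and 29.00 CPM at 30 nM, against 52.5 to 65.7 CPM (median 56.4) in DMSO, a log2 fold change of -0.84 (SE 0.13, edgeR adjusted p = 1.81e-06). ORC6, of the origin recognition complex, changed by -0.76 (SE 0.14) and CDC45, of the replicative helicase, by -0.58 (SE 0.13). PCNA, the sliding clamp, was higher, with 90.9, 83.2 and 88.02 CPM at 30 nM, against 55.02 to 65.1 CPM (median 60.1) in DMSO at 0.55 (SE 0.12, edgeR adjusted p = 0.00103). LIG1, the ligase of lagging strands, stood at 0.32 (SE 0.12, edgeR adjusted p = 0.0326), a call that was lost under 8 settings with adjusted p up to 0.209. Mitosis genes fell in 25 of 33 tested members with 0 higher, at a median of -0.49. CDCA8, of the chromosomal passenger complex, had 30.8, 28.5 and 27.98 CPM at 30 nM, against 52.2 to 61.9 CPM (median 54.5) in DMSO, and PLK1, a mitotic kinase, had 152, 141 and 125 CPM at 30 nM, against 195 to 236 CPM (median 209.7) in DMSO. NCAPG, a condensin subunit, changed by -0.98 (SE 0.15, edgeR adjusted p = 1.3e-06), CDCA8 by -0.93 (SE 0.13), CDCA3 by -0.84 (SE 0.15) and PLK1 by -0.60 (SE 0.11).

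Of cholesterol synthesis genes 17 of 23 tested members of 24 listed rose, with 0 called lower, 6 not called and a median of 0.63, against 18% higher over all genes. The transcription factor SREBP2 switches these genes on when sterols are scarce, and INSIG1 holds it back when they are not. HMGCS1, which makes the substrate of HMG-CoA reductase, had 222, 227 and 185 CPM at 30 nM, against 56.4 to 67.9 CPM (median 59.96) in DMSO. INSIG1 had 128, 129 and 130.5 CPM at 30 nM, against 42.7 to 51.1 CPM (median 47.6) in DMSO. FDFT1, squalene synthase, had 317, 311 and 309.6 CPM at 30 nM, against 143 to 177 CPM (median 158) in DMSO, and as for the other 2 genes no library overlapped with DMSO. The log2 fold changes were 1.79 (SE 0.13, edgeR adjusted p = 9.44e-15) for HMGCS1, 1.44 (SE 0.13, edgeR adjusted p = 5.49e-13) for INSIG1 and 0.98 (SE 0.10) for FDFT1. The sterol regulatory element TCACNCCAC was found in the promoter window of 1 of 17 matched members (5.88%), against 1.13% of all promoters. That share rests on a single gene, the 1 that encodes SREBP2 itself, and shows no pattern across the list.

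Fatty acid genes had members on both sides. Of 12 tested synthesis genes 5 rose (41.7%) and 1 fell (8.33%), against 18% of all genes in either direction. The number higher was 3 without replicate 1 or 2 of 30 nM, replicate 2 of DMSO on either chip or replicate 3 of DMSO on chip 1. SCD, the desaturase that makes monounsaturated fatty acids, had 399, 371 and 327 CPM at 30 nM, against 201 to 231 CPM (median 214) in DMSO, a log2 fold change of 0.76 (SE 0.095, edgeR adjusted p = 2.64e-08). FADS2 was higher at 1.00 (SE 0.19) and ACSL5 at 0.57 (SE 0.10), while ME1, malic enzyme, was lower at -0.91 (SE 0.16, edgeR adjusted p = 2.15e-05). Of 17 tested genes of lipid uptake and breakdown out of 22 listed, 8 rose and 1 fell, with 2 lower without replicate 1 of 30 nM and 3 without its replicate 3. LIPC, hepatic lipase, had 54.3, 65.8 and 63.6 CPM at 30 nM, against 3.99 to 8.57 CPM (median 5.89) in DMSO. CD36, a fatty acid receptor, had 29.3, 29.9 and 23.4 CPM at 30 nM, against 2.20 to 5.11 CPM (median 3.32) in DMSO. These rises, 3.33 (SE 0.20, edgeR adjusted p = 2.86e-19) for LIPC and 2.97 (SE 0.22, edgeR adjusted p = 1.89e-15) for CD36, are among the 12 largest of all genes that met the rule for naming. LIPA, the acid lipase of lysosomes, changed by 0.94 (SE 0.12), HADHA, of mitochondrial beta oxidation, by 0.66 (SE 0.082) and SCARB1, the HDL receptor, by -0.77 (SE 0.11).

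Lysosomal genes rose in 17 of 30 tested members and fell in 1, with a median of 0.51. TFEB and TFE3 are the factors known to drive these genes through the CLEAR element. NEU1, lysosomal sialidase, had 170.2, 179 and 148 CPM at 30 nM, against 55.6 to 71.9 CPM (median 66.7) in DMSO. NPC2, which hands cholesterol out of the lysosome, had 227, 206 and 180.1 CPM at 30 nM, against 74.6 to 96.3 CPM (median 82.2) in DMSO. CD63, a membrane protein of late endosomes, had 487, 514 and 499 CPM at 30 nM, against 234 to 274 CPM (median 261) in DMSO. All 3 lay above the DMSO range, with log2 fold changes of 1.33 (SE 0.11, edgeR adjusted p = 9.19e-14) for NEU1, 1.26 (SE 0.12) for NPC2 and 0.96 (SE 0.11) for CD63. SQSTM1, the p62 receptor of autophagy, changed by 0.84 (SE 0.10, edgeR adjusted p = 1.47e-09), and UVRAG was the member that fell, at -1.19 (SE 0.34, edgeR adjusted p = 0.00373). The CLEAR letters TCACGTGA, which contain the E-box above, were in 4 of 20 matched promoters (20.0%) against 0.98% of all promoters, and 2 of these 4 genes were called. ATP6V0D1, a subunit of the proton pump of lysosomes, is the one with the smaller adjusted p, at 0.47 (SE 0.13, edgeR adjusted p = 0.00333), and its promoter on the minus strand at chr16:67481108-67481407 carries the element shown in capitals.
ATP6V0D1: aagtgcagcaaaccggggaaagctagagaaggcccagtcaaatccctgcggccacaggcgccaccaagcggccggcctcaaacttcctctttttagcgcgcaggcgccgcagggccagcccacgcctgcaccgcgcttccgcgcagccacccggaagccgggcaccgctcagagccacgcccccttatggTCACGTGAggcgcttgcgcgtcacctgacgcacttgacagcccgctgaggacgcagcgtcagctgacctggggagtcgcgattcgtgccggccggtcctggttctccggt

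FOXO factors, which growth factor signalling through AKT keeps out of the nucleus, have targets that rose here in 9 of 12 tested list members, FOXO genes included, with 1 lower and a median of 0.67. Without replicate 1 of 30 nM 2 were lower. YPEL3 had 106, 93.2 and 96.2 CPM at 30 nM, against 31.3 to 37.8 CPM (median 35.3) in DMSO and YPEL5 had 136, 134 and 112 CPM at 30 nM, against 46.2 to 64.4 CPM (median 51.4) in DMSO. Both are small conserved proteins and both rose without overlap, by 1.5005 (SE 0.13, edgeR adjusted p = 5.76e-14) for YPEL3 and 1.24 (SE 0.13) for YPEL5. FOXO3 was higher at 0.64 (SE 0.13, edgeR adjusted p = 0.000209) and FOXO1 lower at -0.74 (SE 0.15, edgeR adjusted p = 0.000194).

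Interferon response genes rose in 23 of 30 tested members out of 32 listed, with 0 lower. The median was 0.93 and stood at 0.92, 0.89 and 0.94 in the 3 libraries. In this response a complex of STAT proteins with IRF9 binds the interferon-stimulated response element. MX1, a GTPase that blocks viruses, had 161, 161 and 163 CPM at 30 nM, against 63.3 to 84.4 CPM (median 71.1) in DMSO. ISG15, a ubiquitin-like modifier, had 167, 169 and 148 CPM at 30 nM, against 60.3 to 82.4 CPM (median 67.7) in DMSO. IFITM3, a membrane protein that blocks viral entry, had 248, 229 and 216 CPM at 30 nM, against 109 to 129 CPM (median 123) in DMSO. The log2 fold changes were 1.17 (SE 0.12, edgeR adjusted p = 2.24e-11) for MX1, 1.23 (SE 0.13, edgeR adjusted p = 7.48e-11) for ISG15 and 0.95 (SE 0.10) for IFITM3, and no library overlapped with DMSO. IFITM1 changed by 0.92 (SE 0.11, edgeR adjusted p = 5.52e-09).

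The interferon-stimulated response element was searched as GAAA, any 2 bases and GAAA again, and was found, on either strand, in 14 of 23 matched members (60.9%), against 3.57% of all promoters. Of these 14 genes 12 were called, and of all 30 tested members 23. MX1 has the smallest adjusted p of those with the element, and its promoter on the plus strand at chr21:41420308-41420607 shows the element in capitals, just after the start.
MX1: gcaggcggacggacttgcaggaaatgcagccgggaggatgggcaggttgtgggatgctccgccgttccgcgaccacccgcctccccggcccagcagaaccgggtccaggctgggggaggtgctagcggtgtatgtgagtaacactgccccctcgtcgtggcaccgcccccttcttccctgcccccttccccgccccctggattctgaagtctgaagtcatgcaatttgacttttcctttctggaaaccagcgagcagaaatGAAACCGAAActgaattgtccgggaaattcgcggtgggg

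Antigen presentation by MHC class I shares part of this control. Of 14 tested members out of 16 listed, 8 rose and 2 fell, with a median of 0.53. PSMB9, of the immunoproteasome, had 88.9, 73.9 and 68.4 CPM at 30 nM, against 38.8 to 50.4 CPM (median 40.8) in DMSO, a log2 fold change of 0.85 (SE 0.13, edgeR adjusted p = 4.99e-07). PSMB10, of the same complex, was higher at 0.83 (SE 0.15). TAP2, a subunit of the peptide transporter, was lower, with 44.7, 45.1 and 46.04 CPM at 30 nM, against 62.1 to 78.4 CPM (median 74.9) in DMSO at -0.65 (SE 0.12, edgeR adjusted p = 0.000273). B2M, the light chain, was lower at -0.30 (SE 0.11, edgeR adjusted p = 0.0208), a call lost under 5 settings with adjusted p up to 0.108.

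BCL2 proteins decide on the permeability of the outer mitochondrial membrane, and the BH3-only members among them start apoptosis. Of 15 tested members out of 16 listed, 4 rose (26.7%) and 3 fell (20%), against 18% of all genes in either direction. BMF, a BH3-only gene, had 49.9, 47.3 and 44.5 CPM at 30 nM, against 5.33 to 8.60 CPM (median 6.99) in DMSO. BCL2L11, which encodes BIM, had 72.9, 65.8 and 61.6 CPM at 30 nM, against 13.2 to 24.9 CPM (median 17.5) in DMSO. Both rose with a wide gap to DMSO, by 2.77 (SE 0.18, edgeR adjusted p = 1.54e-17) for BMF and 1.88 (SE 0.15, edgeR adjusted p = 6.9e-14) for BCL2L11. PMAIP1, which encodes NOXA, fell, with 36.01, 30.7 and 31.5 CPM at 30 nM, against 64.4 to 80.2 CPM (median 70.9) in DMSO at -1.13 (SE 0.13, edgeR adjusted p = 4.04e-10). HRK was lower at -0.88 (SE 0.26) and the survival gene BCL2L1 higher at 0.61 (SE 0.11, edgeR adjusted p = 1.58e-05). BCL2 stood at -0.52 (SE 0.18, edgeR adjusted p = 0.0794) and passed in 6 settings, such as with replicate 1 of 30 nM left out (adjusted p = 0.0316 in edgeR's quasi-likelihood test).

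**Figure D3:**
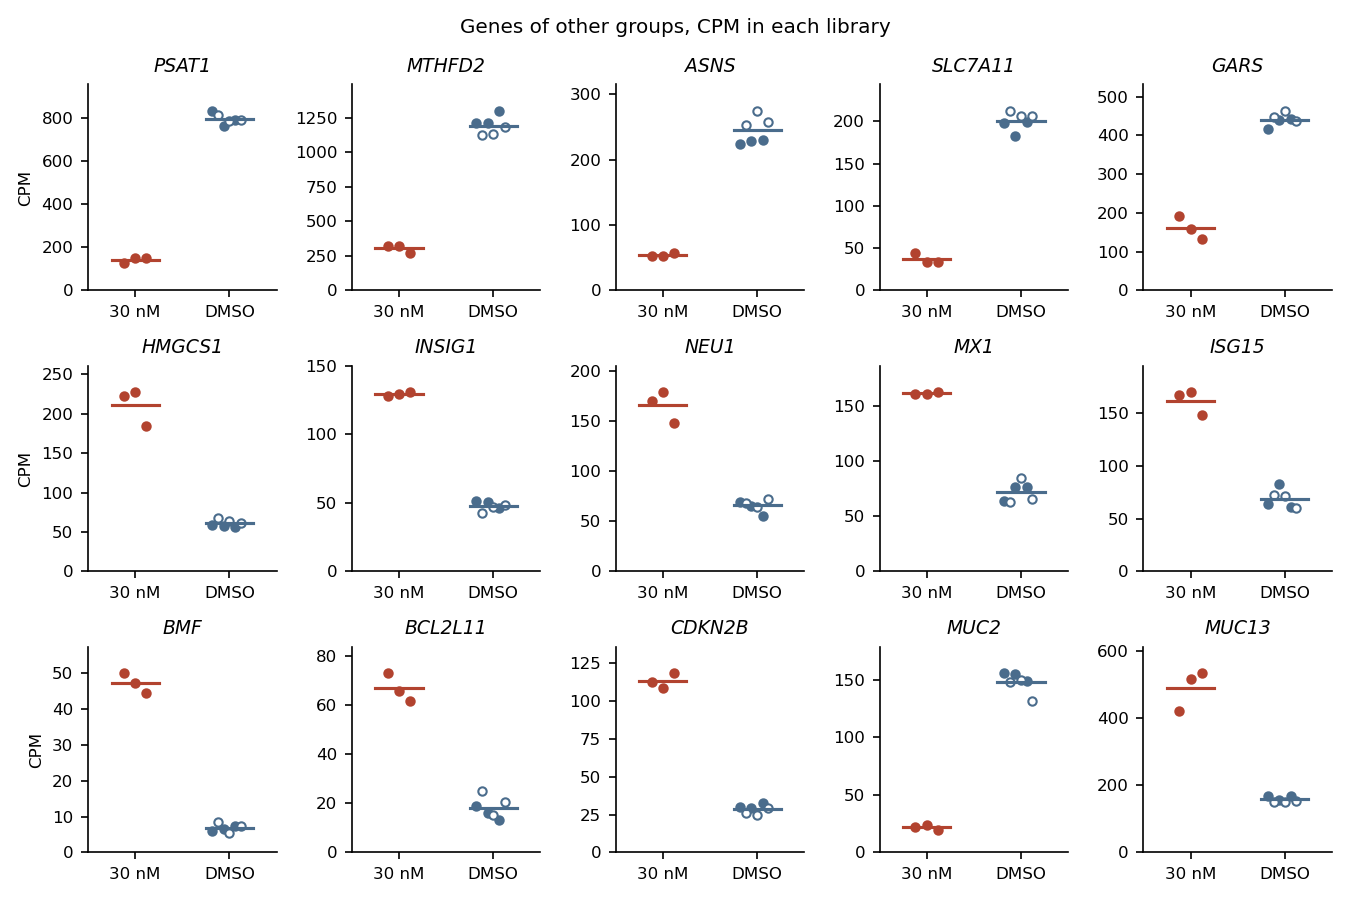
CPM (y axes, linear from 0) of 15 genes of amino acid supply, sterol synthesis, lysosomes, interferon response, apoptosis, cell cycle and mucins in each library at 30 nM (red, left) and of DMSO (blue, right, filled for chip 1 and open for chip 2), with lines at group means. For each gene the 30 nM points lie wholly on 1 side of the DMSO points, below for PSAT1, MTHFD2, ASNS, SLC7A11, GARS and MUC2 and above for the others.

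LoVo cells were checked against markers of colon epithelium, and all 10 listed markers were detected in both groups. Their summed level was 4686 to 5132 CPM at 30 nM and 4304 to 4533 CPM in DMSO, with 4 members higher and 2 lower. Of goblet cell genes the secreted MUC2 and REG4 fell, while the membrane mucins MUC13 and MUC20 rose. MUC2, the main gel-forming mucin of the colon, had 22.1, 23.7 and 19.8 CPM at 30 nM, against 131 to 156 CPM (median 149) in DMSO. REG4, a secreted lectin of the same cells, had 393, 431 and 346 CPM at 30 nM, against 1406 to 1567 CPM (median 1465) in DMSO. MUC13, a membrane mucin, had 420.5, 517 and 533 CPM at 30 nM, against 150.3 to 169 CPM (median 154) in DMSO, and MUC20, another one, had 12.2, 15.8 and 10.7 CPM at 30 nM, against 0.550 to 1.02 CPM (median 0.839) in DMSO. No group overlapped, and the log2 fold changes were -2.76 (SE 0.12, edgeR adjusted p = 1.7e-24) for MUC2, -1.92 (SE 0.11) for REG4, 1.64 (SE 0.12, edgeR adjusted p = 3.26e-16) for MUC13 and 3.93 (SE 0.38) for MUC20. Of 8 tested members out of 16 listed, 4 rose and 3 fell. In bulk RNA, fewer cells of a type and less RNA per cell cannot be told apart.

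Genes of absorptive enterocytes were often too low to test: 16 of 29 listed passed the filter, of which 3 rose and 3 fell. These shares, 18.75% each, are near the 18% of all genes in either direction. VIL1, the actin bundler of microvilli, had 129.5, 126 and 115 CPM at 30 nM, against 52.5 to 60.2 CPM (median 57.3) in DMSO. CDX2, the homeobox factor of intestinal identity, had 274, 254 and 242 CPM at 30 nM, against 128 to 151 CPM (median 139) in DMSO. Both rose without overlap, by 1.11 (SE 0.11, edgeR adjusted p = 1.21e-11) for VIL1 and 0.90 (SE 0.10, edgeR adjusted p = 1.11e-10) for CDX2. KLF5, a factor of crypt cells, was lower at -0.49 (SE 0.079, edgeR adjusted p = 1.57e-06) and KLF4, a factor of differentiated cells, at -0.63 (SE 0.15, edgeR adjusted p = 0.000931). In the CEACAM family of adhesion molecules 4 of 5 genes were tested. CEACAM6 had 14.5, 16.9 and 16.03 CPM at 30 nM, against 55.3 to 64.1 CPM (median 57.8) in DMSO and CEACAM5 had 98.4, 99.8 and 107 CPM at 30 nM, against 224 to 261 CPM (median 244) in DMSO, lower at -1.88 (SE 0.14, edgeR adjusted p = 6.69e-15) for CEACAM6 and -1.26 (SE 0.11) for CEACAM5. CEACAM7 had 0 counts at 30 nM and 22 in DMSO, at least 3.87-fold lower against 3 counts over the group, and was not tested.

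Keratins, the intermediate filaments of epithelia, rose in 7 of 12 tested members out of 16 listed, with 0 lower. KRT14, a keratin of basal squamous cells, had 18.6, 20.1 and 17.04 CPM at 30 nM, against 0.614 to 2.04 CPM (median 1.13) in DMSO. KRT19, a keratin of simple epithelia, had 1324, 1324 and 1228 CPM at 30 nM, against 618 to 704 CPM (median 669) in DMSO. Both lay above DMSO, by 3.87 (SE 0.36, edgeR adjusted p = 1.87e-12) for KRT14 and 0.97 (SE 0.17, edgeR adjusted p = 9.24e-05) for KRT19. KRT6A changed by 1.61 (SE 0.32) and KRT13 by 0.64 (SE 0.13). KRT8 and KRT18, which are among the colon epithelium markers, were not called. Keratin genes have close paralogs, and reads that fit several of them would leave these values uncertain.

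Cell-matrix adhesion changed in 10 members upward (43.5%) and 3 downward (13.0%) of 23 tested, against 18% of all genes in either direction. The laminin chains LAMA5, LAMB2 and LAMA3 build basement membranes. LAMA5 had 154, 169 and 142 CPM at 30 nM, against 50.2 to 65.1 CPM (median 60.8) in DMSO and LAMB2 had 194, 183 and 169 CPM at 30 nM, against 69.7 to 86.5 CPM (median 82.8) in DMSO. Both were above DMSO in each library, at 1.37 (SE 0.12, edgeR adjusted p = 5.17e-13) for LAMA5 and 1.17 (SE 0.12) for LAMB2, with LAMA3 at 1.56 (SE 0.17). TNS4, a tensin at focal adhesions known as a target of EGFR signalling, had 2.90, 2.72 and 3.31 CPM at 30 nM, against 18.4 to 25.8 CPM (median 22.5) in DMSO, a log2 fold change of -2.89 (SE 0.24, edgeR adjusted p = 1.13e-13). ITGA2, a collagen receptor subunit, was lower at -1.08 (SE 0.13, edgeR adjusted p = 1.71e-09).

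Of 22 tested junction genes, 7 rose (31.8%) and 6 fell (27.3%), against 18% of all genes in either direction. CDH1, E-cadherin, had 439, 399 and 363 CPM at 30 nM, against 228 to 267 CPM (median 250.1) in DMSO and JUP, plakoglobin, had 278, 291 and 281 CPM at 30 nM, against 147 to 179 CPM (median 153) in DMSO, higher by 0.68 (SE 0.086, edgeR adjusted p = 2.08e-08) for CDH1 and 0.86 (SE 0.10) for JUP. Of the claudins CLDN4 was higher at 0.72 (SE 0.10) and CLDN7 lower at -0.79 (SE 0.10, edgeR adjusted p = 2.4e-08). Of 5 tested mesenchymal genes out of 10 listed, VIM, vimentin, was higher at 0.53 (SE 0.15, edgeR adjusted p = 0.00512) and S100A4 lower at -0.70 (SE 0.16, edgeR adjusted p = 0.00103).

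Of 10 fibroblast markers 3 passed the filter, COL3A1, COL1A1 and LUM, and these rose from low levels. Of the list 5 had counts in either group, and COL1A2, DCN, THY1, FAP and POSTN were at 0 in all 9 libraries. The summed level of the list was 24.9 to 30.7 CPM at 30 nM and 3.30 to 5.01 CPM in DMSO. COL3A1 had 10.5, 13.6 and 7.12 CPM at 30 nM, against 0.825 to 1.57 CPM (median 1.27) in DMSO, COL1A1 had 11.6, 11.4 and 10.4 CPM at 30 nM, against 1.51 to 2.50 CPM (median 1.81) in DMSO and LUM, lumican, had 5.23, 5.17 and 6.11 CPM at 30 nM, against 0 to 1.36 CPM (median 0.589) in DMSO. The log2 fold changes were 3.02 (SE 0.39, edgeR adjusted p = 3.82e-08) for COL3A1, 2.49 (SE 0.30) for COL1A1 and 3.08 (SE 0.56) for LUM. No 30 nM library overlapped with DMSO, and the part of these markers in other results was not tested. Endothelial markers summed to 0.272 to 0.763 CPM at 30 nM and 0.341 to 1.75 CPM in DMSO, with KDR and CLDN5 at 0 throughout and none of the 6 tested. Immune markers summed to 7.61 to 13.0 CPM at 30 nM and 6.88 to 11.7 CPM in DMSO, nearly all of it CD68, which stood at 0.17 (SE 0.28, edgeR adjusted p = 0.955), with CD3E and MS4A1 among those at 0 in every library.

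Of 15 tested targets of WNT signalling and crypt stem cell genes 5 were higher (33.3%) and 3 lower (20%), against 18% of all genes in either direction. Without replicate 1 of 30 nM or replicate 3 of DMSO on chip 1 3 were higher, and without replicate 2 of DMSO on chip 2 1 was lower. CTNNB1, beta-catenin, had 547, 548 and 489 CPM at 30 nM, against 382 to 414 CPM (median 390.1) in DMSO, a log2 fold change of 0.42 (SE 0.081, edgeR adjusted p = 0.000142). LRIG1, a brake on EGFR family receptors in crypt cells, was higher at 1.10 (SE 0.27, edgeR adjusted p = 0.00216) and RNF43, which removes WNT receptors, at 0.45 (SE 0.12). RGMB was lower at -1.04 (SE 0.18) and ZNRF3 at -0.71 (SE 0.18, edgeR adjusted p = 0.00532), whose call was lost without replicate 2 of DMSO on chip 2 (adjusted p = 0.0676 in edgeR's quasi-likelihood test) or on both chips (adjusted p = 0.0771). Of 13 tested targets of YAP and TEAD out of 14 listed, 2 rose and 2 fell (15.4% each), near the 18% of all genes in either direction. With single libraries left out each number fell to 1. ARHGEF17 was higher at 0.80 (SE 0.13, edgeR adjusted p = 4.7e-06) and F3, tissue factor, lower at -0.62 (SE 0.13).

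Stress responses other than that to amino acids had members on both sides, to be read against 18% of all genes in either direction. Among 20 p53 targets 5 rose (25%) and 6 fell (30%), with 3 higher without replicate 2 of DMSO on either chip. CDKN1A, the p21 inhibitor, was higher at 0.42 (SE 0.10, edgeR adjusted p = 0.00145), with 298, 285 and 238 CPM at 30 nM, against 198 to 209 CPM (median 204) in DMSO. TNFRSF10B, a TRAIL receptor, was lower at -0.72 (SE 0.11, edgeR adjusted p = 1.37e-06) and GDF15 at -0.70 (SE 0.12). Of 17 genes of endoplasmic reticulum stress 3 rose (17.65%) and 6 fell (35.3%). XBP1 had 79.6, 81.3 and 96.4 CPM at 30 nM, against 200.1 to 233 CPM (median 223) in DMSO and ERN1, the sensor that splices it, had 7.26, 7.34 and 14.2 CPM at 30 nM, against 27.6 to 37.6 CPM (median 32.5) in DMSO. XBP1 was lower at -1.36 (SE 0.12, edgeR adjusted p = 8.74e-13), HERPUD1 at -1.12 (SE 0.12) and ERN1 at -1.74 (SE 0.23), and CALR, a chaperone of the reticulum, was higher at 0.55 (SE 0.13).

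Of 18 heat shock genes 6 rose (33.3%) and 4 fell (22.2%), against 18% of all genes in either direction. The mitochondrial chaperones HSPA9 and TRAP1 were among those that fell. HSPA9 had 721, 682 and 629.6 CPM at 30 nM, against 1742 to 1794 CPM (median 1774) in DMSO and TRAP1 had 133, 119.6 and 121 CPM at 30 nM, against 281 to 329 CPM (median 316) in DMSO, at log2 fold changes of -1.39 (SE 0.091, edgeR adjusted p = 1.24e-17) for HSPA9 and -1.32 (SE 0.087) for TRAP1. The cytosolic chaperones HSPA1B and DNAJA1 were higher, at 1.67 (SE 0.16, edgeR adjusted p = 2.18e-10) for HSPA1B and 0.91 (SE 0.10) for DNAJA1. HSPA1A and HSPA1B are near-identical, so the split of reads between them is uncertain. Of 13 tested targets of NRF2 and AhR 5 rose (38.5%) and 4 fell (30.8%). The number higher was 3 without replicate 2 of DMSO on both chips, and the number lower 2 without replicate 3 on both. HMOX1, heme oxygenase, had 20.3, 22.3 and 22.1 CPM at 30 nM, against 6.81 to 11.6 CPM (median 7.87) in DMSO at 1.39 (SE 0.20, edgeR adjusted p = 1.45e-06), and NFE2L2, which encodes NRF2, was lower at -0.71 (SE 0.13). GCLC was lower at -1.32 (SE 0.34), with 34.6, 24.5 and 56.5 CPM at 30 nM, against 78.6 to 113 CPM (median 95.5) in DMSO, and replicate 3 nearest to DMSO.

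Glycolysis and hypoxia genes fell in 8 (29.6%) and rose in 5 (18.5%) of 27 tested members, against 18% of all genes in either direction. HK2, the hexokinase of growing cells, had 34.6, 35.9 and 28.2 CPM at 30 nM, against 85.2 to 97.8 CPM (median 91.5) in DMSO. SLC2A1, the glucose carrier GLUT1, had 173, 180.2 and 154 CPM at 30 nM, against 334 to 388 CPM (median 346) in DMSO. VEGFA, the angiogenic factor, had 14.8, 17.4 and 15.01 CPM at 30 nM, against 49.1 to 58.1 CPM (median 54.5) in DMSO. The log2 fold changes were -1.48 (SE 0.11, edgeR adjusted p = 6.68e-15) for HK2, -1.07 (SE 0.10) for SLC2A1 and -1.78 (SE 0.16) for VEGFA. NDRG1, known as a gene of hypoxia and differentiation, went the other way with 197, 169 and 154 CPM at 30 nM, against 38.3 to 52.8 CPM (median 42.9) in DMSO at 1.99 (SE 0.12, edgeR adjusted p = 2.27e-18), and ADM was higher at 0.80 (SE 0.14). In the respiratory chain 7 of 39 tested members rose (17.95%) and 5 fell (12.8%), against 18% of all genes in either direction. NDUFA2, of complex I, had 98.7, 95.7 and 117 CPM at 30 nM, against 42.1 to 59.9 CPM (median 52.9) in DMSO at 1.00 (SE 0.14, edgeR adjusted p = 4.61e-07), with NDUFA1 at 0.90 (SE 0.15), COX7B at 0.77 (SE 0.14) and NDUFS7 at -0.65 (SE 0.15).

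Chemokine and NF-kB genes had 4 lower (36.4%) and 1 higher (9.09%) of 11 tested members out of 16 listed, against 18% of all genes in either direction. CXCR4, the receptor of CXCL12, had 1.45, 2.17 and 2.54 CPM at 30 nM, against 18.4 to 26.6 CPM (median 24.1) in DMSO, a log2 fold change of -3.46 (SE 0.29, edgeR adjusted p = 5.09e-14). IL33, an alarmin of epithelia, had 0 counts in each 30 nM library and 103 over the DMSO libraries, at least 18.1-fold lower against 3 counts over the group. IL18 was lower at -0.46 (SE 0.11, edgeR adjusted p = 0.000682). NFKBIA, the inhibitor of NF-kB, was higher at 0.95 (SE 0.13, edgeR adjusted p = 8.79e-08). Of 7 tested metallothioneins MT2A was higher at 0.54 (SE 0.13, edgeR adjusted p = 0.00175) and the others did not pass. Metallothionein genes are near-identical, so their values are uncertain, and without replicate 3 of 30 nM 1 fell.

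Genes often used as references were not all steady. ACTB, beta-actin, had 4738, 5264 and 4633 CPM at 30 nM, against 2674 to 3000.3 CPM (median 2834) in DMSO, a log2 fold change of 0.78 (SE 0.12, edgeR adjusted p = 2.05e-06). GAPDH had 5707, 6199 and 5755 CPM at 30 nM, against 6181 to 7364 CPM (median 7162) in DMSO and stood at -0.23 (SE 0.12, edgeR adjusted p = 0.154), without a call, although it passed under 3 settings, with adjusted p of 0.00379 to 0.0397 in edgeR's quasi-likelihood test. HPRT1 was lower at -1.14 (SE 0.19) and TBP at -0.76 (SE 0.24, edgeR adjusted p = 0.00941), the last without a call when replicate 1 of 30 nM was left out (adjusted p = 0.0530 in edgeR's quasi-likelihood test).

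The largest rises at 30 nM were, PLA2G2A apart, in genes with a DMSO median under 10 CPM. C20orf151 had 56 counts in the 3 libraries at 30 nM and 0 in DMSO, at least 35.4-fold higher against 3 counts over the group. PLA2G2A, a secreted phospholipase with antibacterial action, had 238, 245 and 256 CPM at 30 nM, against 27.8 to 34.3 CPM (median 30.6) in DMSO and a log2 fold change of 2.99 (SE 0.12, edgeR adjusted p = 5.55e-25). TNNC1, a troponin, had 83.05, 68.5 and 55.5 CPM at 30 nM, against 7.15 to 12.8 CPM (median 9.15) in DMSO, and BCL2L15, a relative of BCL2, had 18.003, 14.7 and 12.7 CPM at 30 nM, against 1.01 to 2.48 CPM (median 1.75) in DMSO. Their log2 fold changes were 2.87 (SE 0.21, edgeR adjusted p = 1.91e-15) for TNNC1 and 3.09 (SE 0.34) for BCL2L15. PDZD3, a scaffold of the brush border, changed by 2.96 (SE 0.39) and FAM151A by 2.83 (SE 0.38). The other 6 of the 12 largest, MUC20, KRT14, LIPC, LUM, COL3A1 and CD36, are given above.

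Of the 12 largest falls, IL33, EGR1, DUSP6, CXCR4, ETV5 and EREG are given above. CEBPB, a C/EBP transcription factor and partner of ATF4, had 0.581, 1.09 and 3.56 CPM at 30 nM, against 13.5 to 18.2 CPM (median 16.8) in DMSO, a log2 fold change of -3.17 (SE 0.45, edgeR adjusted p = 6.63e-07). MYEOV had 3.19, 2.72 and 4.83 CPM at 30 nM, against 28.9 to 41.8 CPM (median 37.3) in DMSO and changed by -3.33 (SE 0.33, edgeR adjusted p = 4.5e-10). The histone gene HIST1H2BF had 7.84, 5.44 and 25.2 CPM at 30 nM, against 86.5 to 143 CPM (median 114) in DMSO and changed by -3.15 (SE 0.56, edgeR adjusted p = 8.72e-05). Replicate 3 was the highest of the 30 nM libraries for all 3 genes, and below every DMSO library. Histone genes have near-identical copies, so HIST1H2BF may hold reads of others. LOC100287314 changed by -4.29 (SE 0.34), CCDC78 by -3.38 (SE 0.60) and WDR45 by -2.95 (SE 0.70), all from under 30 CPM in each DMSO library.

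**Figure D4:**
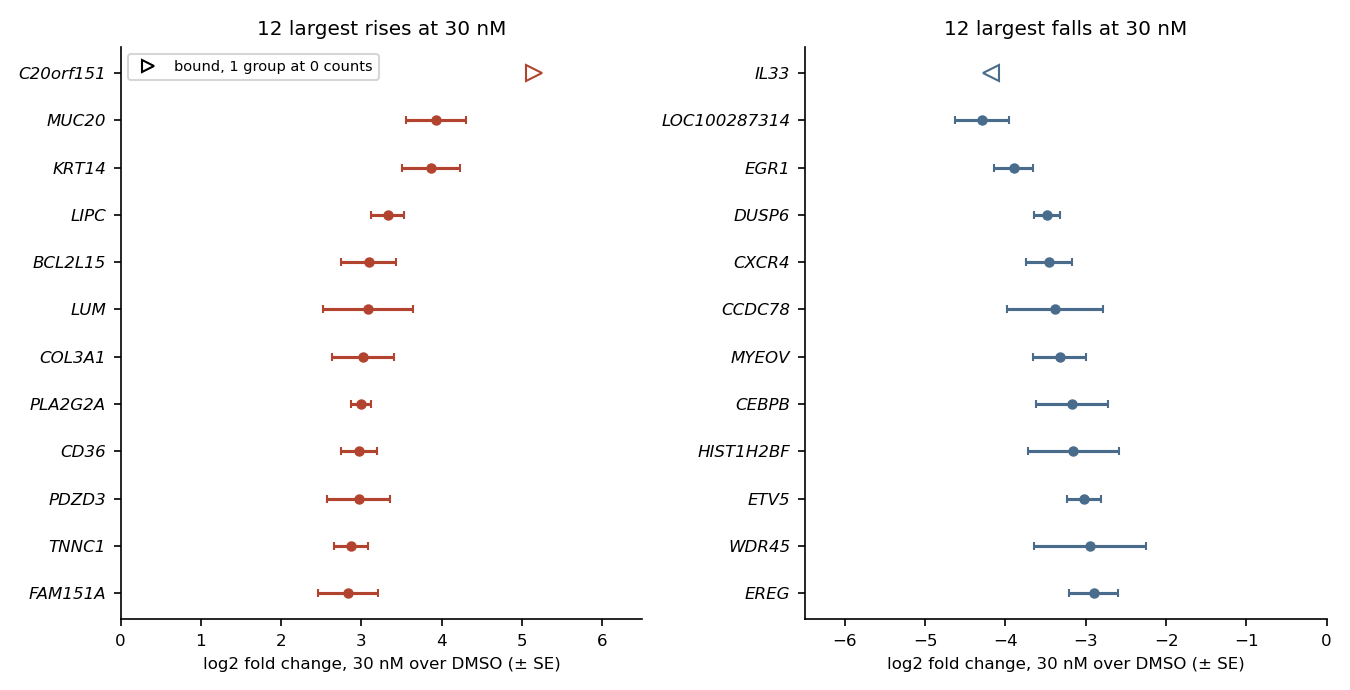
Log2 fold change of 30 nM over DMSO with its SE (x axes) for the 12 largest rises (left) and falls (right) among called genes whose groups do not overlap and whose higher mean reaches 5 CPM. Open triangles are bounds for genes at 0 counts in a group, C20orf151 at 5.15 and IL33 at -4.18, and PLA2G2A has the narrowest error among the rises.

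The place of 30 nM among its neighbours was read from the same model. Against 10 nM, 34 genes differed (0.281%), 12 higher at 30 nM (0.0992%) and 22 lower (0.182%), with 1017 genes at an unadjusted p below 0.05. Without adjustment many of 12102 tests would pass by chance alone, in this step and the next. The gene MUC20 differed by 1.11 (SE 0.26, edgeR adjusted p = 0.0354), SEPP1, a selenium carrier, by 0.93 (SE 0.18, edgeR adjusted p = 0.0042), CDKN2B by 0.63 (SE 0.12, edgeR adjusted p = 0.0042) and TSC22D1 by 0.60 (SE 0.12, edgeR adjusted p = 0.00658). Among the lower ones DUSP6 differed by -1.24 (SE 0.20, edgeR adjusted p = 0.000315), ETV4 by -1.18 (SE 0.20, edgeR adjusted p = 0.000938) and LIPG, endothelial lipase, by -0.89 (SE 0.15, edgeR adjusted p = 0.000938). Leaving out libraries of these doses 1 at a time gave 0 higher and 7 lower without replicate 2 of 10 nM, 3 to 4 higher and 10 to 13 lower without replicate 1 of 10 nM or replicates 1 or 2 of 30 nM, and 8 lower without replicate 3 of 30 nM. At 100 nM against 30 nM 8 genes differed (0.0661%), 1 higher (0.00826%) and 7 lower (0.0578%), with 974 at an unadjusted p below 0.05 and 2 higher and 13 lower by DESeq2. CDKN2B was the gene that was higher, by 0.63 (SE 0.11, edgeR adjusted p = 0.00463), and REG4 was lower at -0.60 (SE 0.11, edgeR adjusted p = 0.00463), DUSP4 at -0.64 (SE 0.13, edgeR adjusted p = 0.019) and CYP2J2, an arachidonic acid epoxygenase, at -0.88 (SE 0.15, edgeR adjusted p = 0.00236). Without replicate 3 of 30 nM this step had 7 higher and 19 lower, and without any other single library of both doses 0 to 1 higher and 1 to 3 lower.

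At 1000 nM against 30 nM 320 genes differed (2.64%), 106 higher at 1000 nM (0.876%) and 214 lower (1.77%). These counts fell to 27 higher and 84 lower without replicate 1 of 30 nM, to 41 and 103 without its replicate 2 and to 45 and 70 without replicate 3 of 1000 nM. The higher genes numbered 164 without replicate 1 of 1000 nM and 175 without its replicate 2, and the lower ones 329 without replicate 3 of 30 nM. Of the 2174 genes higher at 30 nM than in DMSO, 66 were higher again at 1000 nM and 17 lower, while of the 2178 lower ones 108 were lower again and 12 higher. Genes not called at 30 nM that differed at 1000 nM against 30 nM were 28 higher and 89 lower. Among the genes with the largest differences BTG3, an antiproliferative protein, stood at 1.16 (SE 0.30, edgeR adjusted p = 0.021) and FOXA2, a forkhead factor of gut epithelium, at -1.57 (SE 0.32, edgeR adjusted p = 0.00327). BTG3 was called lower at 30 nM than in DMSO, with 5.52 against 13.1 CPM over the summed libraries, whereas FOXA2 was not called there. These steps share the 30 nM libraries with the comparison to DMSO, so a chance low or high value at 30 nM enters both.

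Several genes showed where 30 nM stood on the way to the highest dose. DUSP6 averaged 64.2 CPM in DMSO and then 13.5, 5.73, 3.53 and 1.89 CPM at 10, 30, 100 and 1000 nM, and differed by -1.58 (SE 0.29, edgeR adjusted p = 0.00118) at 1000 nM against 30 nM. MYC averaged 423 CPM in DMSO and then 162, 106, 74.7 and 55.9 CPM at 10, 30, 100 and 1000 nM, a difference of -0.92 (SE 0.10, edgeR adjusted p = 3.28e-08). EPHA2 averaged 449 CPM in DMSO and then 231, 193, 128 and 92.00 CPM at 10, 30, 100 and 1000 nM, a difference of -1.07 (SE 0.13, edgeR adjusted p = 1.66e-07). These genes were already below DMSO at 30 nM and lower again at 1000 nM. CCND1 and BCL2 were not called at 30 nM and were lower at the highest dose. CCND1 averaged 284 CPM in DMSO and then 289.7, 259.8, 209 and 185 CPM at 10, 30, 100 and 1000 nM, a difference of -0.49 (SE 0.10, edgeR adjusted p = 0.00261) at 1000 nM against 30 nM. BCL2 averaged 38.5 CPM in DMSO and then 34.2, 26.9, 15.5 and 10.02 CPM at 10, 30, 100 and 1000 nM, a difference of -1.44 (SE 0.21, edgeR adjusted p = 1.96e-05).

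FAM3D, a secreted gut protein, had 65.04, 70.1 and 71.2 CPM at 30 nM, against 67.1 to 70.3 CPM (median 69.2) in DMSO and stood at -0.0051 (SE 0.11, edgeR adjusted p = 0.971) against DMSO. Its mean was 69.1 CPM in DMSO and then 89.3, 68.8, 44.8 and 30.3 CPM at 10, 30, 100 and 1000 nM, so the level at 30 nM lay between a higher mean at 10 nM and lower ones above. It differed by -0.62 (SE 0.11, edgeR adjusted p = 0.00526) at 100 nM against 30 nM and by -1.18 (SE 0.12, edgeR adjusted p = 2.72e-09) at 1000 nM against 30 nM, while 30 nM against 10 nM stood at -0.38 (SE 0.11, edgeR adjusted p = 0.151). CYP2J2 averaged 72.8 CPM in DMSO and then 47.4, 29.8, 16.2 and 10.2 CPM at 10, 30, 100 and 1000 nM, falling at each of these doses. Among the doses read here PLA2G2A had its highest mean at 30 nM, with 30.9 CPM in DMSO and then 230.1, 246, 205 and 196 CPM at 10, 30, 100 and 1000 nM. The difference between 1000 and 30 nM of -0.33 (SE 0.10, edgeR adjusted p = 0.0681) did not pass, and the other doses of the series were not compared for this gene.

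**Figure D5:**
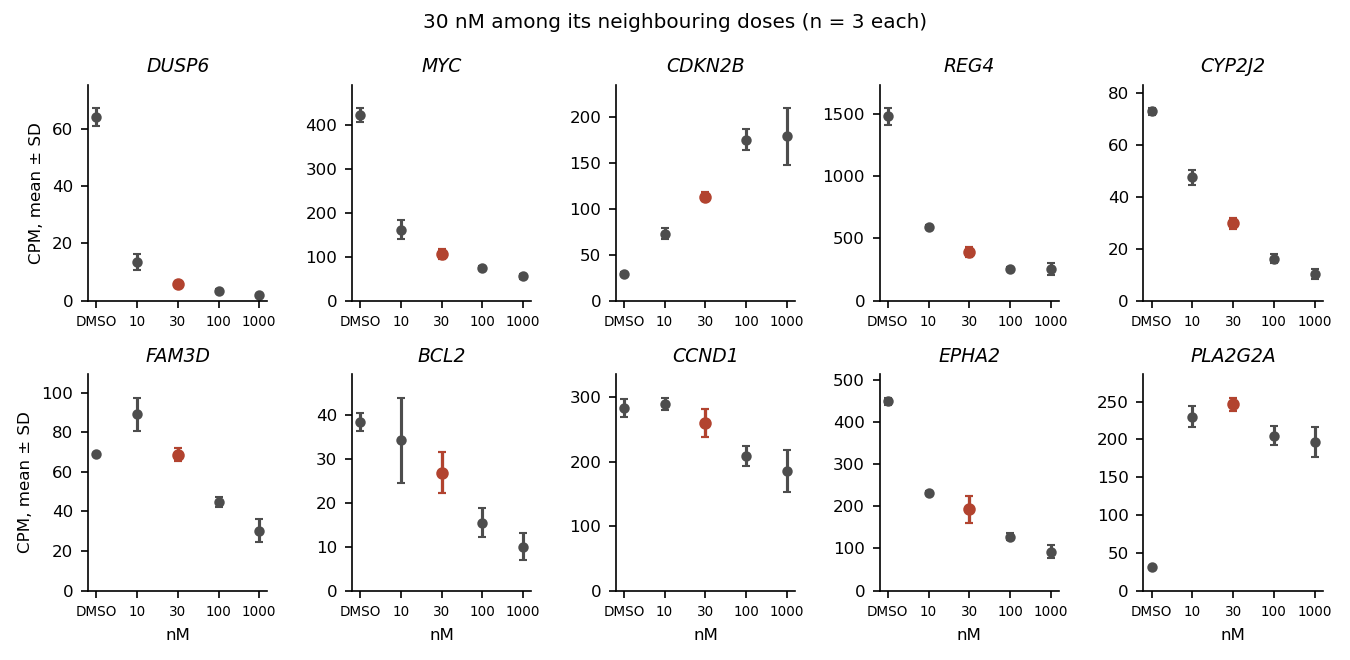
Mean CPM with its SD (y axes, linear from 0, n = 3 each, DMSO over 3 pair means) of 10 genes in DMSO and at 10, 30, 100 and 1000 nM (x axes, doses in nM at even spacing), with 30 nM in red. CCND1 and FAM3D lie near DMSO at 30 nM and lower at 1000 nM, whereas MYC and DUSP6 are already far below DMSO at 30 nM.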

How the data were processed

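RNA of LoVo cells treated with the inhibitor or DMSO was reverse transcribed from 10 ng of total RNA per sample, amplified as Ion AmpliSeq amplicons and pooled 18 samples at a time, per the labels' protocols. The authors deposited raw counts, 1 whole number per gene and library. Per the submitters' processing notes the build was hg19, and neither the aligner nor the counter is named in the sources used here. The 36 single files equal the columns of the matrix. Each file has 20812 rows, of which 10 are spike-in rows at 0 and were left out. Counts are not corrected for amplification, so bounds cover counting error only.

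With edgeR 4.0.16 in R 4.3.3, low genes were removed by filterByExpr, libraries scaled by TMM and all 36 libraries fitted as 12 groups of 3 (24 residual degrees of freedom) with the robust quasi-likelihood method. The 30 nM group was tested against the DMSO group of either chip, and the larger p entered the Benjamini-Hochberg adjustment across the 12102 genes. Calls needed an adjusted p below 0.05 and the same sign against either chip. Log2 fold changes against DMSO use the average of the chips. An SE is the absolute log2 fold change divided by the square root of the F statistic. Against DMSO it was taken for each chip alone, and the larger value is printed. CPM use TMM library sizes. Deviations of same-numbered DMSO libraries of both chips correlated at 0.39, 0.25 and 0.34 over 5441 genes, so means and SDs of DMSO are over 3 pairs. The fitted model has no term for these pairs and treats all DMSO libraries as independent. Medians per library use a prior count of 1. Alternatives used limma 3.58.1 and DESeq2 1.42.0, and figures Python 3.11.15 with matplotlib 3.10.9.

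The comparison, the 49 gene lists and the tests were chosen with earlier results of these data known. Of 951 list entries 847 were tested, 100 were too low and 4 were not analysed here. Genes named are the 12 largest rises and falls that were called, did not overlap and reached a mean of 5 CPM in 1 group, all members of the MAPK activity and EGFR ligand lists, up to 4 called members of other lists by adjusted p with up to 2 of the rarer direction, the 4 largest of each direction per step, and a fixed set of pathway and reference genes. MRTO4 and ATP6V0D1 were added for their promoters after their values were seen. Not every gene that the rule takes is printed, and some items are not reported here. Promoters are RefSeq sequences of GRCh38.p14, matched by symbol, and no coordinates of the deposited files were used.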

Additional observations from a re-analysis of the deposited data

How the results depend on the processing

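The counts at 30 nM against DMSO stayed within 1.5 times under every setting run, with 1722 to 3077 genes higher and 1809 to 2966 lower. The upper ends came from the mean of both DMSO groups, a setting that counts same-numbered DMSO libraries as independent. That setting is also among those in which BTC and BCL2 passed. Leaving out 1 library or DMSO pair gave 1722 to 2066 higher and 1809 to 2188 lower. The replicate numbers of 30 nM and DMSO did not pair (correlations -0.03 to 0.02), and the replicate block gave 2160 higher and 2161 lower. Of 218 named genes called, 207 kept their call in every setting that tested them. These were 24 settings, or 23 for MYCN and SPRY4.

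The steps between doses were less firm, and the cause was not tested. DESeq2 gave 2 higher and 13 lower at 100 against 30 nM, and 2 genes between chips. Without the filter on low counts, 35 genes were lower at 30 against 10 nM, 37 higher and 21 lower at 100 against 30 nM, 205 higher at 1000 against 30 nM and 2 differed between chips. With 3 libraries left out that earlier results set apart (0.1 nM replicate 2, 1 nM replicate 1, 1000 nM replicate 1) the counts were 48 and 60 at 30 against 10 nM, 6 and 33 at 100 against 30 nM, 327 and 571 at 1000 against 30 nM, higher first, and 2 between chips. With only the 9 libraries compared 2 genes differed between chips. Leaving out single libraries gave 0 to 13 higher and 7 to 16 lower at 30 against 10 nM, 0 to 7 and 1 to 19 at 100 against 30 nM, and 27 to 175 and 70 to 329 at 1000 against 30 nM.

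Among named genes signs turned for CD68, EPHA4, FAM3D and TGFA, none of them called. With DMSO chip 2 alone the log2 values were -0.041 for CD68, -0.018 for EPHA4 and 0.011 for FAM3D, and with only the libraries compared FAM3D was at 0.0063. Leaving out libraries gave -0.064 (without replicate 3 of 30 nM) to 0.35 for CD68, -0.17 (without DMSO replicate 1 of both chips) to 0.25 for EPHA4, which was at -0.12 without replicate 3 of 30 nM, -0.032 to 0.026 (without replicate 1 of 30 nM) for FAM3D and -0.45 to 0.012 (without replicate 3 of 30 nM) for TGFA. With 2972186 to 4072743 counts per library, 8700 of 20802 genes did not pass the filter and could not be tested.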
